A study of Mus musculus with 2 samples.

Results

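The genes described here encode the subunits of potassium and calcium channels in pancreatic islets. They are all genes whose symbol in the authors' deposited table starts with Kcn or Cacn, leaving out Kcnj11, Kcnj8 and the antisense transcript Kcnq1ot1. The rule took 118 of 24288 gene symbols, 92 of potassium and 26 of calcium channel genes, and used no measured change. Of these, 89 were measured, 68 potassium and 21 calcium channel genes. A gene counted as measured when a probe lay well above background, the scanner software's flag for a clear signal, on at least 4 of the 8 arrays.

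A beta cell is an electrically excitable cell: as glucose metabolism depolarizes it, voltage-gated calcium channels open and the calcium that enters drives insulin release. Voltage-gated, calcium-activated and background potassium channels repolarize the membrane and so shape and end each burst of action potentials. Both channel classes are built from pore-forming subunits, which carry the ion, and from accessory subunits, which set how many channels reach the membrane and how they gate.

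The arrays measured total RNA of isolated islets from C57BL/6J mice aged 8 weeks. One group had lost 60% of the pancreas by surgery (pancreatectomy) and the other had a sham operation, and islets were taken 3 days later. Each group is 1 deposited sample read on 4 one-colour Agilent arrays, and both groups share strain, age and the interval after surgery. Whether different mice or islet isolations lie behind the 4 arrays of each group is not stated in the labels. The p-values therefore cover the scatter of these arrays alone, part or all of which may be technical. All 8 arrays lie on 1 slide, with sham in slide columns 1 and 2 and pancreatectomy in columns 3 and 4, so slide column and group cannot be told apart.

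Values are normalized log2 signals: log2 of the background-subtracted probe intensity, shifted so that the 75th percentile is equal on all arrays. They are given in the order of replicates 1 to 4, and a log2 change is the pancreatectomy mean minus the sham mean with its standard error (SE) from limma. Between 49.3% and 72.2% of spots were well above background per array, and the lowest share was on sham replicate 3, where 67 of the 89 channel genes were, against 80 to 89 on the other arrays. All 10 beta cell markers were measured, with a mean log2 signal of 15.09 to 15.69 on the sham and 14.71 to 15.23 on the pancreatectomy arrays. Transcripts of other tissues stood out on some arrays. The mean log2 signal of 11 liver markers was 11.25 to 11.99 on sham replicate 4 and pancreatectomy replicates 1 and 4, 8.11 on pancreatectomy replicate 3 and at most 6.21 on the others. On pancreatectomy replicate 3 the means of 5 measured gut and 5 measured lymphocyte markers were 10.98 and 11.35, against at most 7.93 and 7.18 elsewhere.

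Among the 89 channel genes, Kcnh5 was lower after pancreatectomy and none was higher at an adjusted p under 0.05 (limma, Benjamini-Hochberg over all 30858 genes and unnamed probes tested). That is 1.12% of the channel genes called lower, beside 0.0843% (26) of all features. Of all features, 0.544% (168) were called higher. The other 88 channel genes did not pass the test. Their log2 changes ran from -0.92 to 0.90, and of all 89 genes 37 were above and 52 below 0. The median change was -0.04 for the potassium and -0.10 for the calcium channel genes, beside -0.04 for all features.

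At an unadjusted p under 0.05 in limma, 3 channel genes were higher and 8 lower, beside 4.22% and 6.28% of all features. All 4 pancreatectomy arrays lay below all 4 sham arrays for 5 channel genes, Kcnh5, Kcnh6, Cacnb1, Cacna2d4 and Kcnu1. These are 5.62% of the channel genes, beside 5.3% of all features. No channel gene had all 4 pancreatectomy arrays above the sham arrays, beside 2.99% of all features. The 95% confidence interval of the change lay within 2-fold in both directions for 62 of the 89 channel genes (69.7%) and for 73.8% of all features. In bulk islets, fewer cells of a type and less RNA per cell cannot be told apart.

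**Figure D1:**
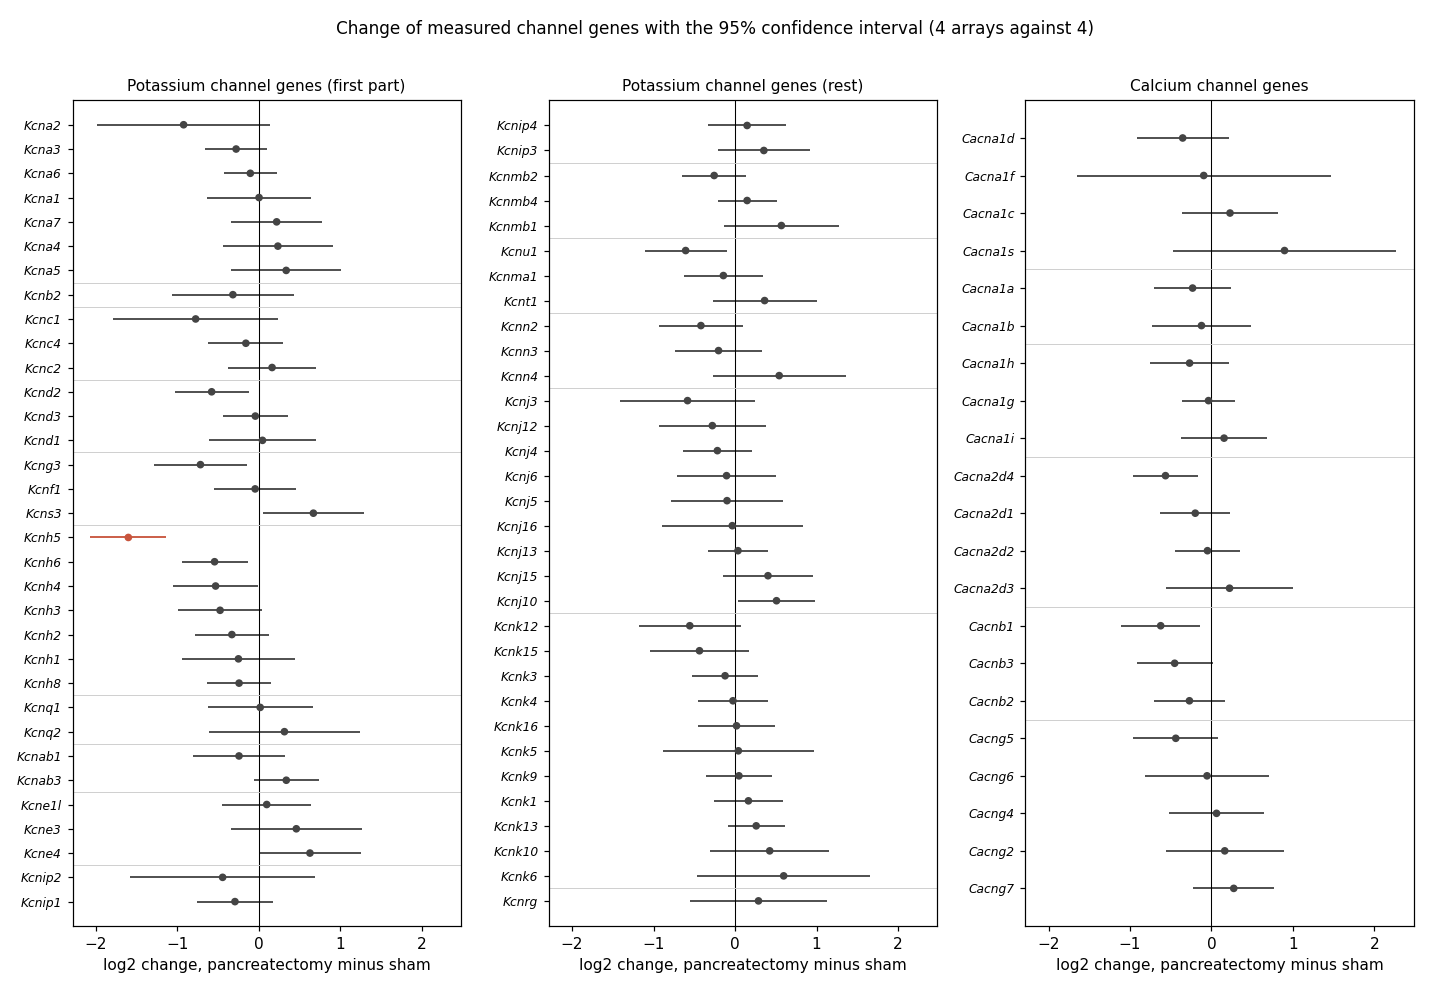
Log2 change of the measured channel genes, a few left out, pancreatectomy minus sham, on the horizontal axis, with points for the estimate and bars for the 95% confidence interval from limma (4 arrays against 4), and grey lines between subfamilies. Kcnh5, in red at -1.60, is the gene past the adjusted p of 0.05, and the other points lie between -0.92 and 0.90.

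The Kcnh genes encode the ether-a-go-go channels, voltage-gated potassium channels of the EAG (Kcnh1 and Kcnh5), ERG (Kcnh2, Kcnh6 and Kcnh7) and ELK (Kcnh3, Kcnh4 and Kcnh8) groups. Kcnh5, a pore-forming EAG subunit best known from the brain, read 6.16, 5.72, 6.39 and 5.60 on the sham arrays and 4.23, 4.21, 4.51 and 4.54 on the pancreatectomy arrays in normalized log2 signal. The groups did not overlap: the lowest sham array lay above the highest pancreatectomy array by more than the range within either group. The means were 5.97 ± 0.37 and 4.37 ± 0.18 (SD, n = 4 arrays). The log2 change was -1.60 ± 0.21 (SE) with a 95% confidence interval of -2.07 to -1.13, a level 3.03 times lower (limma adjusted p = 0.0138). In the authors' deposited table the difference of their group values was -1.59 on the log2 scale.

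A single probe reported Kcnh5, at chr12:75998266-75998325 on the minus strand of mm9, and no second probe was there to compare. It was well above background on 4 of 4 sham and 3 of 4 pancreatectomy arrays. Pancreatectomy replicate 2, the array of its group on which no liver, gut or lymphocyte marker mean stood out, differed from the sham mean by -1.76. The other pancreatectomy arrays differed from it by -1.74 to -1.43. Whether the transcripts of other tissues bear on the change was not tested.

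The call for Kcnh5 held in 13 of 23 alternative settings, with log2 changes from -1.88 to -0.66 and limma adjusted p-values from 0.00439 to 1.00. It was lost without sham replicate 1 (-1.53, adjusted p = 0.0556) and without pancreatectomy replicate 4 (-1.65, adjusted p = 0.0525). With the normexp background correction, which adds an offset of 50 to each intensity, the change was -0.66 (adjusted p = 0.682). Such an offset shrinks the log2 changes of dim probes, and its share in this smaller change was not tested. Within slide row 1 and slide row 2, each with 2 arrays against 2, the change was -1.72 and -1.47, with adjusted p-values of 0.550 and 0.917. With slide row as a block it was -1.60 (adjusted p = 0.0305).

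**Figure D2:**
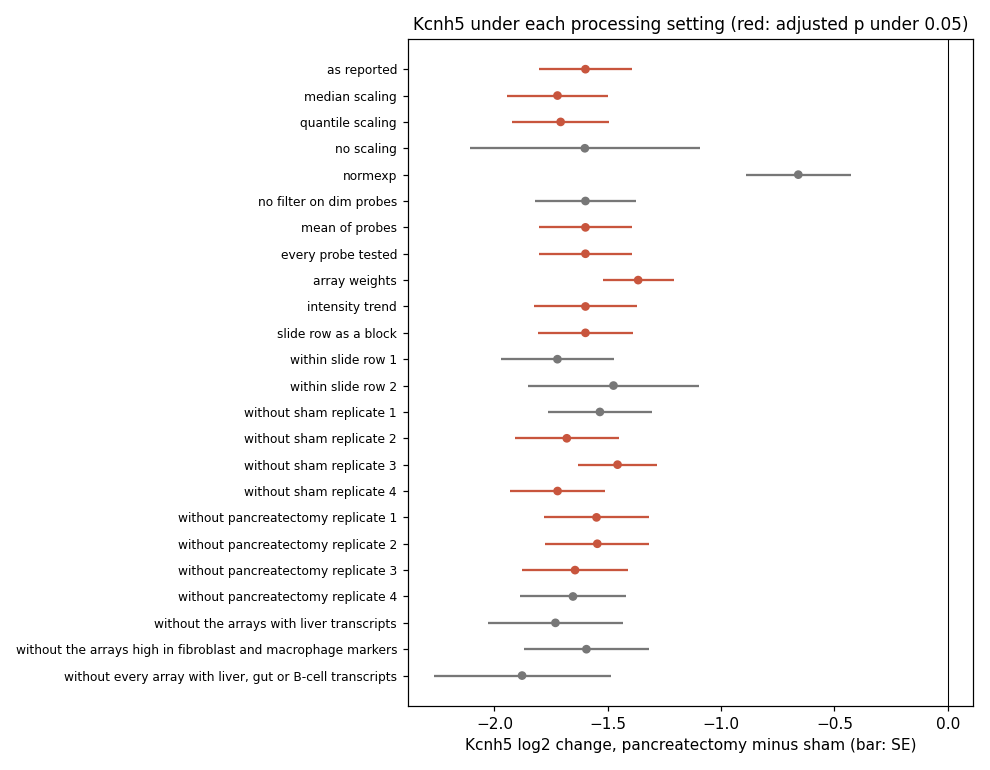
Log2 change of Kcnh5, pancreatectomy minus sham, on the horizontal axis under each processing setting or array selection named on the vertical axis, with bars for the SE. Red marks an adjusted p under 0.05 in limma. Every point lies below 0, and the smallest change, -0.66, is that with the normexp background correction and its offset of 50.

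The other 6 measured Kcnh genes did not pass the test, and all had log2 changes below 0. Kcnh6, an ERG subunit, read 6.73, 6.98, 7.18 and 6.87 on the sham and 6.61, 6.64, 6.23 and 6.12 on the pancreatectomy arrays. The groups did not overlap, and the log2 change was -0.54 ± 0.18 (SE; limma adjusted p = 0.346), with -0.38 from a second probe of the gene. Kcnh2, the ERG channel that repolarizes the heart, read 9.06, 9.50, 8.68 and 9.24 on the sham and 8.99, 8.56, 8.77 and 8.85 on the pancreatectomy arrays, a log2 change of -0.33 ± 0.20 (SE). Its sham replicate 3 lay within the pancreatectomy range and the other sham arrays above it.

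The ELK gene Kcnh4 read 13.35, 13.17, 12.46 and 12.85 on the sham and 12.65, 12.08, 12.34 and 12.65 on the pancreatectomy arrays, a log2 change of -0.53 ± 0.23 (SE), with sham replicate 3 again inside the pancreatectomy range. A second Kcnh4 probe for the same transcript was well above background on 1 of 8 arrays and gave no measured change. Kcnh3 and Kcnh8, the other ELK genes, had log2 changes of -0.47 ± 0.23 and -0.24 ± 0.18 (SE), and the EAG gene Kcnh1 had -0.25 ± 0.31. These 3 genes were named after their values were seen. The 7 measured Kcnh genes had a median log2 change of -0.47, and each was below 0 under all 4 scalings tried, which include no scaling. Within slide row 2 alone 6 of the 7 were below 0. Of all features, 54.9% had a change below 0.

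**Figure D3:**
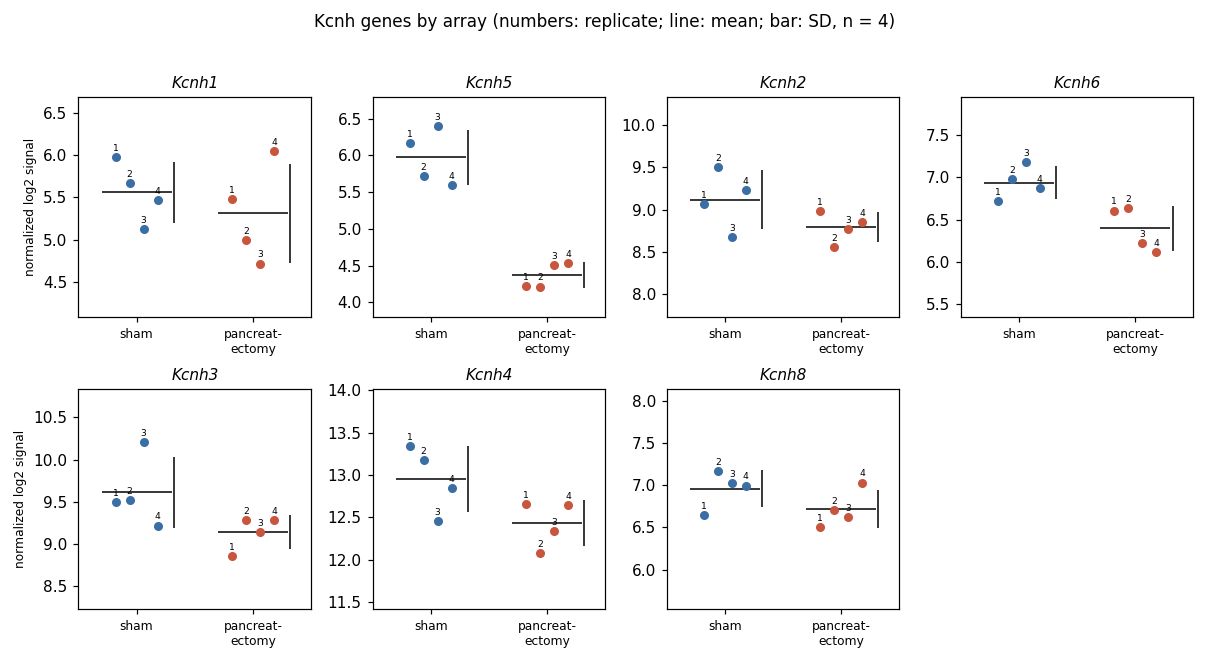
Normalized log2 signal of the 7 measured Kcnh genes on each array, sham in blue and pancreatectomy in red, with the replicate number beside each point, a line at the mean and a bar for the SD (n = 4). Kcnh5 has the widest gap between groups, from 4.37 ± 0.18 to 5.97 ± 0.37, and Kcnh6 is the other gene without overlap.

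Kv2 channels are delayed rectifiers, which repolarize the membrane after an action potential. Kcnb2, a Kv2 pore gene, read 6.18, 6.27, 7.38 and 6.37 (sham) and 5.85, 6.95, 5.97 and 6.16 (pancreatectomy) in normalized log2 signal, a log2 change of -0.32 ± 0.33 (SE) with a 95% confidence interval of -1.06 to 0.43. Sham replicate 3 and pancreatectomy replicate 2 were its high arrays, the 2 arrays with the smallest share of spots above background.

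Silent subunits form no channel alone but join Kv2 pores and slow or shift their gating. Kcns3 read 5.34, 4.84, 4.69 and 4.27 on the sham and 5.50, 5.77, 4.88 and 5.68 on the pancreatectomy arrays, the largest log2 change above 0 among the potassium channel genes at 0.67 ± 0.27 (SE; limma adjusted p = 0.439). Pancreatectomy replicate 3 lay within the sham range and the other pancreatectomy arrays above it. Kcng3, named after its values were seen, read 5.24, 5.27, 4.51 and 5.47 (sham) and 4.17, 4.89, 4.31 and 4.27 (pancreatectomy), a log2 change of -0.71 ± 0.25 (SE; adjusted p = 0.376), and only its dim sham replicate 3 lay among the pancreatectomy arrays. Kcnf1 had a log2 change of -0.04 ± 0.22 (SE). Kcng1, Kcng2, Kcng4, Kcns1, Kcns2, Kcnv1 and Kcnv2, the other silent subunit genes, were not measured.

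The Kv1 genes encode delayed rectifiers and, with Kcna4, a fast inactivating channel. Kcna4 read 12.14, 12.28, 11.08 and 12.38 on the sham and 11.96, 12.27, 12.03 and 12.55 on the pancreatectomy arrays, a log2 change of 0.24 ± 0.30 (SE), with sham replicate 3 alone below the rest. Kcna1 and Kcna5 had log2 changes of 0.01 ± 0.28 and 0.34 ± 0.30 (SE). Of the 7 measured Kv1 genes, 4 changes were above and 3 below 0, and none passed the test. Kcna2, named after its values were seen, had the lowest of them at -0.92 ± 0.47 (SE), with 4.17, 1.94, 3.45 and 3.87 on the pancreatectomy arrays, where replicate 2 stood alone.

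Kv3 channels open at strongly depolarized voltages and shut fast. Kcnc1 read 5.84, 6.31, 7.95 and 6.19 on the sham and 5.52, 6.43, 5.82 and 5.43 on the pancreatectomy arrays, a log2 change of -0.77 ± 0.45 (SE) with a confidence interval of -1.78 to 0.24. Sham replicate 3 was far above the other sham arrays, which lay within the pancreatectomy range. Kcnc2 had a log2 change of 0.17 ± 0.24 (SE).

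Kv4 channels give the transient A-type current, and KChIP proteins and the Dpp6 family are their auxiliary subunits. Kcnd2 read 5.70, 5.73, 5.57 and 5.71 on the sham and 4.89, 5.65, 5.06 and 4.79 on the pancreatectomy arrays. The sham arrays lay close together and pancreatectomy replicates 1, 3 and 4 below them, while replicate 2 lay among them. Its log2 change was -0.58 ± 0.20 (SE; limma adjusted p = 0.371). Kcnd1 and Kcnd3 had log2 changes of 0.05 ± 0.29 and -0.04 ± 0.18 (SE). Kcnip3, a KChIP that also binds DNA as a repressor, read 10.46, 9.88, 10.42 and 9.78 (sham) and 10.60, 10.77, 10.67 and 9.91 (pancreatectomy), a log2 change of 0.35 ± 0.25 (SE). Its pancreatectomy replicate 4 lay within the sham range and the other pancreatectomy arrays above it. The other 3 KChIP genes had changes of -0.44 to 0.15.

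Of the Kv7 genes, which encode slow channels without inactivation, Kcnq1 had a log2 change of 0.02 ± 0.28 (SE). Variants at Kcnq1 are known for their association with diabetes. Its arrays read 8.26, 8.06, 7.71 and 7.58 (sham) and 7.79, 7.40, 8.69 and 7.81 (pancreatectomy), with pancreatectomy replicate 3 the highest and replicate 2 the lowest of the 8. The accessory Kv beta gene Kcnab3 read 7.99, 8.49, 8.27 and 8.66 (sham) and 8.64, 8.61, 8.62 and 8.89 (pancreatectomy), a log2 change of 0.34 ± 0.18 (SE), and 3 of its 4 sham arrays lay below every pancreatectomy array. The 3 measured Kcne genes, which encode small accessory subunits, had log2 changes above 0, with 0.10 ± 0.24 (SE) for Kcne1l and a median of 0.46. With median scaling 2 of the 3 were above 0, and without pancreatectomy replicates 1 and 3 only 1 was. Kcnrg, which encodes a protein that hinders the assembly of voltage-gated channels, had a log2 change of 0.29 ± 0.37 (SE).

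Kcnma1 encodes the BK channel, opened by calcium and depolarization together. It read 9.41, 9.64, 10.01 and 9.42 on the sham and 9.11, 9.90, 9.37 and 9.53 on the pancreatectomy arrays, a log2 change of -0.14 ± 0.21 (SE) with a confidence interval of -0.63 to 0.34. Its accessory beta subunit genes Kcnmb2 and Kcnmb4 had log2 changes of -0.26 ± 0.17 and 0.15 ± 0.16 (SE). Kcnu1, a pH-sensitive relative of BK known from sperm, read 9.52, 9.79, 10.46 and 9.84 (sham) and 9.03, 9.43, 9.21 and 9.52 (pancreatectomy). The lowest sham and the highest pancreatectomy array both read 9.52 after rounding, and the log2 change of -0.61 ± 0.22 (SE) had a limma adjusted p of 0.399.

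The SK genes Kcnn2 and Kcnn3 encode small-conductance channels opened by calcium through calmodulin. Kcnn3 read 9.11, 8.76, 9.15 and 8.64 on the sham and 8.44, 9.14, 8.27 and 9.004 on the pancreatectomy arrays, a log2 change of -0.20 ± 0.24 (SE). Pancreatectomy replicates 2 and 4 lay within the sham range and replicates 1 and 3 below it. Kcnn2 had a log2 change of -0.42 ± 0.23 (SE). Kcnn4, the intermediate-conductance channel also known from blood and immune cells, read 6.47, 6.45, 6.66 and 5.98 (sham) and 7.28, 6.90, 7.67 and 5.87 (pancreatectomy), a log2 change of 0.54 ± 0.36 (SE). Pancreatectomy replicate 4 was its lowest and replicate 3 its highest array.

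Tandem-pore (K2P) channels give the background conductance at rest. Kcnk16 encodes TALK-1, a channel known from the beta cell. It read 10.78, 10.48, 10.60 and 10.24 on the sham and 10.38, 10.73, 10.14 and 10.92 on the pancreatectomy arrays, a log2 change of 0.02 ± 0.21 (SE) with a confidence interval of -0.45 to 0.49. Kcnk1 and the acid-sensitive Kcnk3 had log2 changes of 0.16 ± 0.19 and -0.12 ± 0.18 (SE), with overlapping groups. Of the 11 measured genes of this family, 7 changes were above and 4 below 0, from -0.56 to 0.60, and none passed the test.

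Inward rectifiers hold the resting potential. Kcnj12 read 9.20, 9.58, 10.45 and 9.57 on the sham and 8.89, 9.73, 9.51 and 9.54 on the pancreatectomy arrays, a log2 change of -0.28 ± 0.29 (SE). The G protein-gated subunit genes Kcnj3 and Kcnj6, which pass inhibitory signals from receptors, had log2 changes of -0.58 ± 0.37 and -0.10 ± 0.27 (SE). Kcnj3 was well above background on 3 of 4 arrays in each group. Kcnj10, named after its values were seen, read 6.28, 6.89, 6.31 and 6.26 (sham) and 6.84, 6.99, 6.62 and 7.32 (pancreatectomy), a log2 change of 0.51 ± 0.21 (SE; limma adjusted p = 0.448), and sham replicate 2 alone kept its groups from parting.

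Calcium enters beta cells of the mouse mainly through L-type channels, whose pores Cacna1c and Cacna1d encode, with further P/Q-, N- and R-type pores from Cacna1a, Cacna1b and Cacna1e. Cacna1d read 7.90, 8.23, 8.80 and 7.95 on the sham and 7.92, 8.32, 7.64 and 7.58 on the pancreatectomy arrays in normalized log2 signal. Its log2 change was -0.35 ± 0.25 (SE; 95% confidence interval -0.92 to 0.21), with -0.17 from its second probe. Pancreatectomy replicates 1 and 2 lay within the sham range and replicates 3 and 4 below it. Cacna1c had a log2 change of 0.23 ± 0.26 (SE), and it was well above background on 3 of 4 sham and 4 of 4 pancreatectomy arrays. Cacna1e was well above background on 1 of 8 arrays and gave no change.

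Cacna1a read 8.51, 8.96, 9.08 and 8.77 on the sham and 8.25, 9.05, 8.48 and 8.61 on the pancreatectomy arrays, a log2 change of -0.23 ± 0.21 (SE). Its pancreatectomy replicate 2 lay inside the sham range and replicate 1 below all other arrays. Cacna1b, at -0.12 ± 0.27 (SE), and the T-type genes Cacna1g and Cacna1h, whose channels open at low voltage, at -0.04 ± 0.14 and -0.27 ± 0.22 (SE), had overlapping groups. None of the 9 measured calcium pore genes passed the test.

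Accessory beta subunits bring the pore to the membrane and set its gating, and the 3 measured beta genes all had log2 changes below 0 under all 4 scalings tried. Cacnb1 read 5.55, 5.83, 5.56 and 5.94 on the sham and 5.32, 4.54, 5.38 and 5.15 on the pancreatectomy arrays. The groups did not overlap, and the log2 change was -0.62 ± 0.21 (SE; limma adjusted p = 0.366). Cacnb3 read 10.11, 10.50, 11.01 and 10.36 (sham) and 9.84, 10.15, 10.01 and 10.18 (pancreatectomy), a log2 change of -0.45 ± 0.21 (SE; adjusted p = 0.493), and sham replicate 1 lay below the highest 2 pancreatectomy arrays. Cacnb2 had -0.27 ± 0.19 (SE), with 0.002 from its second kept probe, and Cacnb4 was not measured. No beta gene passed the test over all features.

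The alpha2delta subunits lie outside the membrane and carry the channel to the cell surface. Cacna2d1 read 11.57, 12.13, 11.99 and 12.04 on the sham and 11.38, 11.95, 11.71 and 11.89 on the pancreatectomy arrays, a log2 change of -0.20 ± 0.19 (SE; confidence interval -0.63 to 0.23). Cacna2d4 read 5.98, 5.39, 5.87 and 5.61 (sham) and 5.30, 4.90, 5.11 and 5.26 (pancreatectomy). Its groups did not overlap, with 5.39 and 5.30 as their nearest arrays, and the log2 change was -0.56 ± 0.18 (SE; limma adjusted p = 0.315). Cacna2d2 had -0.05 ± 0.18 (SE). The 5 measured Cacng genes, most of them better known as partners of glutamate receptors, had log2 changes of -0.44 to 0.27, with 0.06 ± 0.25 for Cacng4 and 0.27 ± 0.22 for Cacng7 (SE). That Cacng7 probe matches no RefSeq transcript, and a dimmer Cacng7 probe that does had a log2 change of -0.008.

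**Figure D4:**
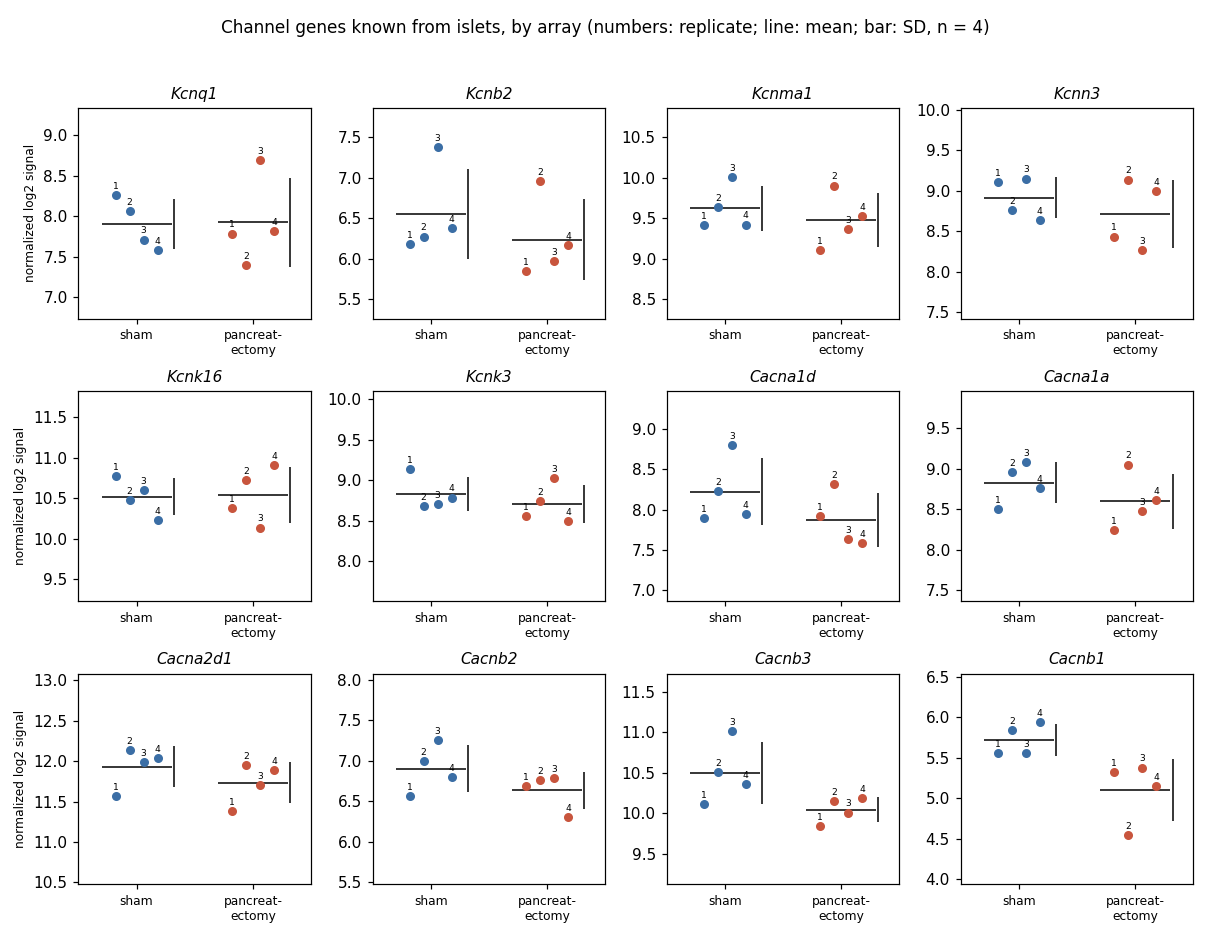
Normalized log2 signal on each array of 12 channel genes known from islets, sham in blue and pancreatectomy in red, with the replicate number beside each point, a line at the mean and a bar for the SD (n = 4). Kcnk16 and Kcnq1 have nearly equal group means, each with a change of 0.02, and Cacnb1 is the gene whose groups do not overlap.

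Of the other genes of membrane excitability and calcium handling, taken as 4 lists, 1 passed the test. Channel partner proteins had 25 of 27 genes measured, with 1 lower and none higher, beside 0.0843% and 0.544% of all features. Dpp10, an auxiliary subunit of Kv4 channels, read 9.91, 9.66, 10.14 and 9.64 on the sham and 8.38, 8.64, 8.24 and 8.75 on the pancreatectomy arrays. The groups did not overlap, and the gene fell by 1.34 ± 0.18 (SE) on the log2 scale (limma adjusted p = 0.0167). The call held in 14 of 24 alternative settings, with changes from -1.46 to -1.13 and limma adjusted p-values from 0.00361 to 1.00. It was lost without sham replicate 1 (-1.31, adjusted p = 0.0678), sham replicate 2 (-1.40, 0.0612) or pancreatectomy replicate 1 (-1.30, 0.0540). Dpp6, the close relative of Dpp10, had a log2 change of -0.06 ± 0.14 (SE).

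Rem2, a small G protein that inhibits calcium channels by binding beta subunits and named after its values were seen, read 6.01, 6.08, 6.87 and 6.26 on the sham and 5.24, 5.26, 5.78 and 5.39 on the pancreatectomy arrays, without overlap. Its log2 change of -0.88 ± 0.23 (SE) had a limma adjusted p of 0.197. The list's median change was -0.06. None of 22 measured of 24 sodium and other cation channel genes, 13 of 15 chloride and anion channel genes, or 28 of 30 genes of calcium pumps, exchangers and stores passed the test in either direction. At an unadjusted p under 0.05 these lists had, in turn, 0 higher and 4 lower, then 2 higher and 0 lower, then 1 higher and 5 lower, beside 4.22% of all features higher and 6.28% lower. Their median log2 changes were -0.08, 0.08 and -0.21.

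The groups did not overlap for 3 genes of the cation channel list, all lower, for 3 of the anion channel list, all higher, and for 3 of the calcium list, 1 higher and 2 lower, beside 2.99% of all features higher and 5.3% lower. Trpm5, a calcium-activated cation channel that depolarizes beta cells, had a log2 change of -1.09 ± 0.28 (SE; limma adjusted p = 0.212), and Hcn3, a hyperpolarization-activated channel, had -0.76 ± 0.17 (SE; 0.131). Itpr1, the calcium release channel of the endoplasmic reticulum gated by inositol trisphosphate, read 12.23, 12.08, 12.12 and 12.04 (sham) and 10.65, 11.53, 11.25 and 11.10 (pancreatectomy), a log2 change of -0.99 ± 0.20 (SE; 0.0808). All 3 were among these genes and were named after their values were seen.

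Some channel genes parted pancreatectomy replicates 1 and 3 from the other arrays. Both lay above the other 6 arrays for 7 channel genes (7.87%, beside 4.98% of all features) and below them for 12 (13.5%, beside 16.4%). These genes were picked for that pattern, so no test is given. Kcnk6, a background channel, read 6.48, 6.43, 6.88 and 5.86 on the sham and 8.02, 6.17, 7.75 and 6.10 on the pancreatectomy arrays. Its pancreatectomy replicates 2 and 4 lay within the sham range, and its log2 change over all arrays was 0.60 ± 0.47 (SE). Kcne3, an accessory subunit of epithelial channels, read 6.34, 5.83, 5.80 and 5.09 (sham) and 6.79, 5.57, 6.73 and 5.83 (pancreatectomy), with replicates 2 and 4 again within the sham range. Kcnn4, given above, also had its highest values on those arrays, and Kcne4, Kcnj15, Kcnk13 and Kcnmb1 were the other such genes.

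On the same arrays, markers of other cell types were high. The mean of 7 measured of 8 macrophage markers differed from the sham mean by 1.47 and 1.10 on pancreatectomy replicates 1 and 3 and by -0.50 and 0.04 on replicates 2 and 4. For 10 fibroblast, stellate cell and pericyte markers the differences were 2.48 and 1.85, against 0.04 and 0.06. Duct cell markers, 7 in number, were also high on these arrays, with differences of 1.06 and 0.68, against -0.43 and -0.37. Smooth muscle markers were high on pancreatectomy replicates 1 and 3 but on replicate 4 as well. The summed signal of the macrophage list ran from 12532 to 15201 on the sham and from 9484 to 20373 on the pancreatectomy arrays, in normalized units, and all 7 were well above background on every array. That of the fibroblast list ran from 7811 to 13630 and from 10496 to 121009, with 9 of 10 well above background on sham replicate 3 and all 10 elsewhere. The part of these cells in the values of the channel genes was not tested.

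Those below on both arrays included Kcnma1, Kcnn2, Kcnn3, Kcnb2, Kcnf1, Cacna1a and Cacnb3, with Kcnab1, Kcnh3, Kcnh8, Kcnk12 and Kcnu1. For Kcnn3 the means were 8.36 on replicates 1 and 3 and 9.07 on replicates 2 and 4, and for Kcnma1 they were 9.24 and 9.72. The mean of the 10 beta cell markers differed from the sham mean by -0.60 and -0.48 on replicates 1 and 3 and by -0.08 and -0.20 on replicates 2 and 4.

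**Figure D5:**
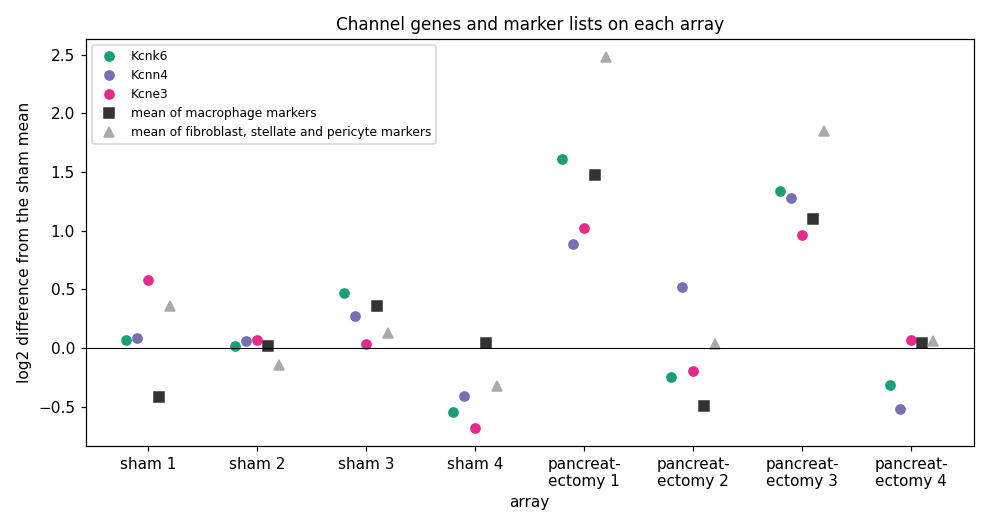
Log2 difference from the sham mean on each of the 8 arrays for Kcnk6, Kcnn4 and Kcne3 (circles) and for the mean of the macrophage (squares) and fibroblast, stellate and pericyte markers (triangles). All 5 series are high on pancreatectomy replicates 1 and 3, where the fibroblast mean reaches 2.48 and 1.85.

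Sham replicate 3, the dimmest array, was the lowest of the 8 for 18 channel genes and the highest for 28. Cacna1f, an L-type gene named after its values were seen, read 8.22, 8.61, 5.16 and 8.38 on the sham and 7.23, 7.57, 7.49 and 7.70 on the pancreatectomy arrays, and the other sham arrays lay above every pancreatectomy array. The log2 change from this probe, which matches no RefSeq transcript, was -0.10 ± 0.69 (SE). The gene's other kept probe, which does match one, was dim, at 3.05 to 4.13, and had a log2 change of 0.40. Cacna1s, the L-type pore of skeletal muscle and also named after its values were seen, had the largest change above 0 of the calcium channel genes at 0.90 ± 0.60 (SE). It read 5.62, 5.46, 3.25 and 5.11 (sham) and 5.07, 5.45, 7.11 and 5.39 (pancreatectomy), low on sham replicate 3 and high on pancreatectomy replicate 3, and the other 6 arrays lay between 5.07 and 5.62.

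Probes of a gene did not always point one way. Of the 30 channel genes with 2 or more kept probes, 13 had log2 changes of opposite sign. Kcnd1, Kcnq1, Kcnmb4, Cacnb2, Cacna1f, Cacna1h, Cacna2d2 and Cacng7 were among them. Some of these changes were small, as with -0.02 and 0.02 for Kcnq1 and 0.002 for the dimmer Cacnb2 probe. The changes of one gene's probes lay at most 0.67 apart. The values given are those of the brightest kept probe.

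The 29 channel genes that were not measured, 24 potassium and 5 calcium, have no change here. For 15 of them, among them Kcnj2, Kcnk2, Kcnq5, Kcnn1 and Kcne1, no probe was well above background on any array. The others were well above background on 1 to 3 of the 8 arrays, with Cacnb4 on 3, Kcnh7 on 2 and Kcnab2 on 1. These calls depend on probe and array and do not show that a gene was silent.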

How the data were processed

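Total RNA of mouse islets was measured on one-colour Cy3 Agilent arrays, 4 per group, and 1 further table of the whole series was used. The authors deposited spot intensity values, background-subtracted on a linear scale. The file headers name Feature Extraction 10.7.3.1 and the submitters' processing notes version 9.1, and probe coordinates are those of mm9, per the file headers. A second deposited table by the authors holds 1 raw intensity and 1 normalized log2 value for either group. It gave gene symbols and a check: across features its differences had a slope of 0.998 and an r of 0.986 against those reported here. Its columns have medians of 0.0718 (sham) and 0.00342 (pancreatectomy), and its centring step is not stated.

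Outlier spots (113 to 228 per array) were left out, no spot was saturated, and spots of a probe were averaged. Log2 processed signals were shifted to each array's 75th percentile, which was 178 to 655 in intensity units before the shift. Of 55681 probes, 37484 were kept, with signals well above background on at least 4 arrays and at least 3 values per group, and the brightest kept probe stood for each gene. The 118 channel genes had 178 probes, of which 123 were kept and 160 had an accession in RefSeq's gene table. limma 3.58.1 (R 4.3.3) compared the groups over 30858 features, and p-values are two-sided and adjusted by Benjamini-Hochberg with a threshold of 0.05. Precision is limited by the number of arrays.

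Settings changed one at a time were the scaling, the background correction (normexp on median foreground and background with an offset of 50), the filter, the probe rule, array weights, an intensity trend, slide row and the arrays left out. Named genes are those past the threshold, up to 5 in each direction with the largest change among genes whose groups do not overlap, the brightest gene of each subfamily and a fixed list, and genes outside this rule were chosen after their values were seen. The genes and all lists were chosen with earlier results of these data known. A few genes are counted among the totals but not reported here by name.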

Additional observations from a re-analysis of the deposited data

Results flagged for a closer look

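Of 94 groups of 4 arrays, those of each reported named gene in each surgery group, 5 held 1 array whose gap to the nearest other array took up more of the group's range than Dixon's 95% critical value allows. Chance flags about 1 in 20 groups. Cacna1g, a T-type calcium pore, read 4.51 on pancreatectomy replicate 2 and 4.84 to 4.87 on the other pancreatectomy arrays. The Kv beta gene Kcnab3 read 8.89 on pancreatectomy replicate 4 and 8.61 to 8.64 on the others. For the Kv2 gene Kcnb2, sham replicate 3 read 7.38 and the other sham arrays 6.18 to 6.37. Kcnj3, of the G protein-gated inward rectifier, read 3.27 on sham replicate 3 and 4.05 to 4.17 on the others. The BK beta gene Kcnmb2 read 11.50 on sham replicate 1 and 11.83 to 11.89 on the others. None of the 5 genes passed the test between groups.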

How the results depend on the processing

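The lower call of Kcnh5 was lost in 10 of 23 alternatives, and a filter on all 8 arrays left it untested. No channel gene was called lower with no scaling, normexp, no filter on dim probes, a filter on all 8 arrays, within slide row 1 or 2 alone, without the liver-marked arrays, without pancreatectomy replicates 1 and 3, or without every array with liver, gut or B-cell transcripts (0 each). The last selection was added after seeing the data. Leaving out 1 array gave 0 to 1 lower. The log2 change of Kcnh5 was -1.60 with no scaling (limma adjusted p = 1.00) and with no filter (0.0541), -1.73 without the liver-marked arrays (0.290), -1.59 without pancreatectomy replicates 1 and 3 (0.139), and -1.88 with 3 sham arrays against pancreatectomy replicate 2, whose spread is assumed equal to the sham arrays' (0.684). Across all features limma called 0 in either direction within slide row 1 or 2, with 2020 and 896 at an unadjusted p under 0.05, and 0 without the liver-marked arrays (sham replicate 4, pancreatectomy replicates 1 and 4), with 1352, or without every array with transcripts of other tissues, with 1648. With array weights limma called 1 channel gene higher (Kcne4, 0.95) and 3 lower (Kcnd2, -0.68; Kcng3, -0.98; Kcnh5, -1.37), beside 407 higher and 362 lower of all features. Median scaling moved the median of the potassium channel genes to -0.16 and that of all features to -0.16, and the higher and lower calls over all features from 168 and 26 to 130 and 48. Over 50 named genes and 24 alternatives, 1143 of 1191 changes either stayed past the threshold, or stayed short of it and moved by less than 1 SD. Of the rest, 37 stayed short of the threshold but moved by 1 SD or more, 10 lost the call and 1 gained it. No called gene changed sign. No paired analysis was possible because each group has 1 deposited sample and no replicate number links the arrays of the groups. With slide row as a block Kcnh5 stayed past the threshold, and no other channel gene passed it.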
